A study of Mus musculus with 14 samples.

Results

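Neurons that make melanin-concentrating hormone (MCH) were picked out of Drop-seq data by their own transcript. A cell barcode was taken when Pmch, the gene of the MCH precursor, held at least 0.5% of its unique molecular identifiers (UMIs, which count captured RNA molecules) and had more UMIs than Hcrt, the gene of hypocretin. This rule found 99 of the 15378 barcodes kept as cells, out of 28410 deposited. The members were thus chosen by their Pmch and Hcrt counts, which are described and not tested. They are called Pmch barcodes here, because the name MCH neuron is borne out by neuronal genes in 50 of the 62 barcodes with the most Pmch and in 8 of the other 37.

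The cells came from punches of the lateral hypothalamic area of male wildtype C57BL/6J mice, 7 fed a control chow matched in taste and 7 fed a high fat diet, with 1 library per mouse. All mice ate and drank freely on a reversed light cycle, and neither their age nor the length of feeding is given in the sources used here. Pool 1 held 4 mice of each diet and pool 2 held 3 of each, sequenced on separate lanes. Tissue dissociation and droplet capture decide which cells are seen, so a share of barcodes is not a share of the cells in the tissue.

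MCH is a cyclic peptide, and the neurons that make it lie in the lateral hypothalamus and zona incerta, beside but apart from the hypocretin neurons. In rodents they are known for promoting feeding, energy storage and sleep, and they act through the receptor MCHR1. They are known to carry the vesicular glutamate transporter Slc17a6 together with the GABA-synthesizing enzyme Gad1 but not the vesicular GABA transporter Slc32a1, and a subset makes CART (Cartpt) and the neurokinin B receptor Tacr3.

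Pmch lies at chr10:88091072-88092375 on the plus strand of GRCm38 and has 3 exons. Its last 19 codons, which encode MCH itself, are shown because they identify the peptide and because they lie inside the gene Parpbp, whose counts enter every comparison below. They join the last 10 bases of exon 2 (chr10:88091877-88091886) to 47 bases of exon 3 (chr10:88092140-88092186), and the capitals mark the 2 cysteine codons that close the ring.
Pmch coding end: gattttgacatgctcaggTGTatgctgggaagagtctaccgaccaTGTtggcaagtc
Parpbp (chr10:88091432-88146941, minus strand) encodes a DNA repair protein that binds PARP1, and its exon sequence covers exons 2 and 3 of Pmch. Of 1005 Parpbp UMIs in all deposited barcodes, 878 (87.4%) were in Pmch barcodes. Whether counting used strand is not given in the sources used here, so Parpbp counts cannot be told apart from Pmch RNA. Parpbp was left in the fits and in their counts of genes that passed, but its values are not read as a result.

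The 250 bases before the start sites of Pmch and Cartpt are shown because these are the peptide genes by which the barcodes were chosen and then divided. Both were matched in the RefSeq table on GRCm38.p6, and the motifs searched on both strands were TATAAA, the core promoter box, TGACGTCA, the cyclic AMP response element, TGAGTCA, an AP-1 site, and CCAAT, with matches in capitals.
Pmch, chr10:88090822-88091071, plus strand: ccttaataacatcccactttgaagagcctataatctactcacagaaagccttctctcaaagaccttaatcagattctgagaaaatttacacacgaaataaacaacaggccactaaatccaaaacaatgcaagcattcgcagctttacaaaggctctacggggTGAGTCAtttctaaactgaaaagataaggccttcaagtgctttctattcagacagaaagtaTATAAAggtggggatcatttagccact
Cartpt, chr13:99900684-99900933, minus strand: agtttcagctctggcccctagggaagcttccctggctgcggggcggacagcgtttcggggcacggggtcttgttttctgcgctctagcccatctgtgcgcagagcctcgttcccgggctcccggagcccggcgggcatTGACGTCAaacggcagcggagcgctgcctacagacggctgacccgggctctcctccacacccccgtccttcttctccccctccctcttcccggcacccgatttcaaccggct
The Pmch window held TATAAA at -27 to -22 and TGAGTCA at -88 to -82 from the start site, and the Cartpt window held TGACGTCA at -112 to -105. Among 32851 promoter windows of this length, 12.4% held TATAAA, 4.46% TGAGTCA, 1.55% TGACGTCA and 33.8% CCAAT. The Cartpt window is counted from the RefSeq start site, which lies inside the gene as GENCODE bounds it. A match is a description of the letters and not evidence of a bound factor.

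The libraries held 147470 to 5611524 UMIs and 49 to 1779 kept barcodes per mouse. Pmch barcodes numbered 0 to 18 per mouse, 57 from the control chow and 42 from the high fat diet, and high fat diet replicates 5 and 7 had none. No Pmch barcode sequence occurred in another library, although 41 barcodes of the series did. In the summed RNA of the other neurons, taken from the 11 mice with at least 100 of them, the first principal component placed 3 mice (control replicate 1, control replicate 2, high fat diet replicate 1) at 10.1 to 16.2 and the other 8 mice at -8.8 to -2.1. These mice stand apart, and calls lost or gained without them are given beside the gene.

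The 99 barcodes were not alike. In 62 of them Pmch held at least 5% of UMIs, with a median of 23.1% and a highest value of 43.8%. These barcodes had 523 to 40875 UMIs with a median of 3156. In 50 of the 62, the neuronal genes Snap25 and Syt1 reached 2 UMIs together, Cartpt had a UMI in 27 and Slc17a6 in 27, and 3 drew at least 1% of their UMIs from markers of a non-neuronal cell type. The neuronal genes and both other MCH markers were therefore seen in this set, while its Pmch was fixed by the way it was chosen. Among the other neurons Cartpt had a UMI in 11.0% and Slc17a6 in 34.9%, so Slc17a6 is not particular to this set.

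The other 37 barcodes had Pmch between 0.5% and 5% of UMIs, with a median of 1.14%. Their median depth was 718 UMIs and 8 of them reached the neuronal minimum. At least 1% of UMIs came from markers of a non-neuronal type in 25 of the 37, and oligodendrocyte markers did so in 13. The name MCH neuron is therefore not borne out for most of this set, and the 5% line, chosen after seeing the data, is used below as a second setting.

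Just inside the rule, 6 barcodes had Pmch at 0.5% to 0.6%, and 3 of them reached the neuronal minimum. Just outside, 14 barcodes had 0.4% to 0.5%, of which 1 reached it and 9 carried at least 1% of oligodendrocyte markers. A Pmch UMI was also seen in 21.2% of the other 5987 neuron barcodes (median depth 3636 UMIs) and in 13.4% of 6155 oligodendrocyte barcodes (median depth 1094 UMIs), so scattered Pmch UMIs were found across cell types. The Pmch barcodes held 82.8% of all 98699 Pmch UMIs in the deposited tables.

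**Figure D1:**
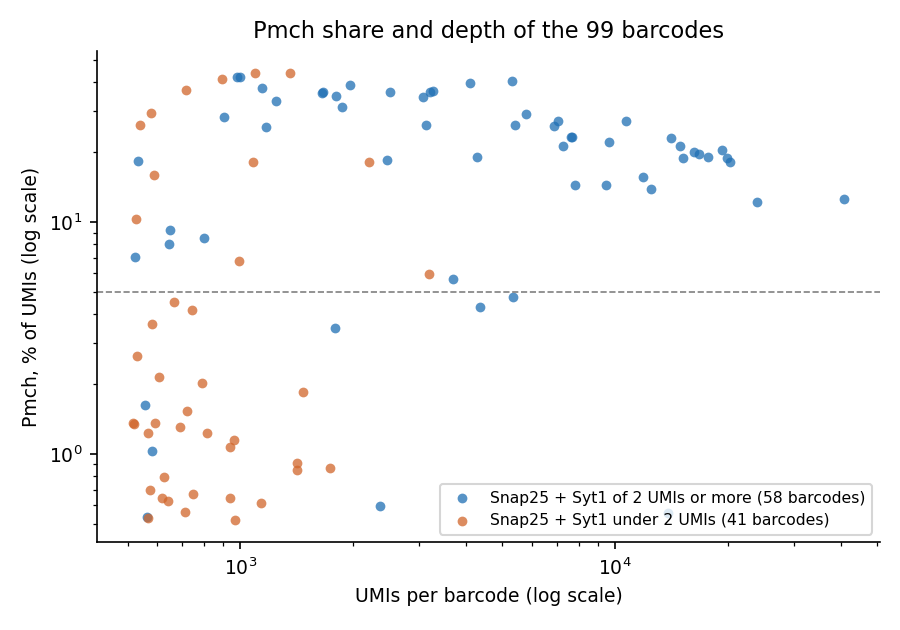
Each point is 1 of the 99 Pmch barcodes, with UMIs per barcode on the x axis and Pmch as a percentage of UMIs on the y axis, both on log scales; the dashed line is at 5%. The 62 barcodes above the line reach 40875 UMIs and mostly carry neuronal genes, while the 37 below it have a median of 718 UMIs and 8 carry them.

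Among the 62 barcodes, Pmch did not take a larger share in deeper barcodes (Spearman's rho = -0.17 between Pmch percentage and UMIs over 62 barcodes of 12 mice, a description with no test, since both values share the UMI total). The 25 with over 5000 UMIs had Pmch at 12.1% to 40.6% and a median of 20.4%. The 26 with under 2000 UMIs had 6.77% to 43.8% and a median of 30.3%. All 25 deep barcodes carried Snap25 and Syt1, and none drew 1% of its UMIs from non-neuronal markers.

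The first comparison asked how Pmch barcodes differ from all other neurons of the same mice in genes that the rule did not use. UMIs were summed per mouse over 95 Pmch barcodes and over 5606 other neuron barcodes in the 10 mice with at least 3 Pmch barcodes, and Pmch, Hcrt, Snap25 and Syt1 were removed. The sums held 11786 to 67701 UMIs for Pmch barcodes and 972768 to 4090216 for other neurons, so counting error lies mainly on the Pmch side. Levels are CPM, UMIs scaled to a common library total with TMM factors. Changes are log2 fold changes of edgeR's quasi-likelihood test with the mouse as a block, and the threshold for passing was 0.05 after Benjamini-Hochberg adjustment.

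Of 6842 genes tested, 300 were higher in Pmch barcodes (4.38% of those tested, Parpbp included) and 611 lower (8.93%). Among them 770 also passed in the same direction in the 62 barcodes with at least 5% Pmch. The split depended on the scaling. The median gene lay at -0.22, and with DESeq2 size factors in edgeR 424 genes were higher and 445 lower around a median of -0.10, with no scaling beyond total UMIs 385 and 499 around -0.14, and with limma voom 425 and 457 around -0.03. Small changes near these medians are therefore not read as directions. A gene could also pass the count filter through the deeper sums of other neurons alone. Sst was tested with no UMI in the Pmch sums, while Tacr3, at 226 against 10.5 CPM pooled, was not tested. The list counts and medians below include genes that entered in this way, and its part in them was not tested. The oligodendrocyte markers, all 8 of which had UMIs in both classes, made up 0.0192% to 3.66% (median 0.417%) of the Pmch sums and 0.0853% to 0.473% (median 0.143%) of the other neurons, and their part in the result was not tested.

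Of the 15 higher genes of smallest p, Igf1, insulin-like growth factor 1 (chr10:87858265-87937042), ranged from 61.2 to 533 CPM with a median of 296 in Pmch barcodes and from 6.58 to 26.3 with a median of 12.4 in other neurons. The groups did not overlap, and the log2 fold change was 4.59 (SE 0.25, edgeR adjusted p = 3.48e-71, higher in 10 of 10 mice). Chodl, which encodes the membrane lectin chondrolectin (chr16:78930948-78951733), ranged from 184 to 917 CPM against 15.2 to 39.4, again without overlap (log2 fold change 4.04, SE 0.24, edgeR adjusted p = 1.45e-60).

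Nucb2, the gene of the precursor of nesfatin-1 (chr7:116504369-116540584), had 123 to 1166 CPM with a median of 555 in Pmch barcodes and 64.8 to 124 with a median of 77.2 in other neurons. It was higher in 9 of 10 mice and the ranges touched (log2 fold change 2.96, SE 0.19, edgeR adjusted p = 4.16e-47). Pcsk2, the prohormone convertase 2 that cuts peptide precursors (chr2:143546156-143816285), had 245 to 2471 CPM against 140 to 251, with a log2 fold change of 2.93 (SE 0.15) and higher values in 9 of 10 mice. Both genes were at their lowest in control replicate 2, 1 of the mice that stand apart. Of the 9 Pmch barcodes of that mouse, 1 had Pmch at 5% or more, and oligodendrocyte markers held 3.66% of their summed UMIs.

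The other higher genes of smallest p were the lectin receptor Cd302 (log2 fold change 3.11), the nucleotidyltransferase gene Fam46a (3.07), the mucin-like Parm1 (2.80), the endoplasmic reticulum calcium binder Rcn1 (2.58), the secreted glutathione peroxidase Gpx3 (2.30), the lysophospholipase D gene Enpp2 (2.204), the cargo receptor Tmed3 (2.13), Maged2 (2.06), the ubiquitin ligase adaptor Klhl13 (2.01) and the protease inhibitor cystatin C, Cst3 (1.56). All of them also passed in the 62 barcodes with at least 5% Pmch, at 1.49 to 3.27. Enpp2 and Cst3 are also made by glia, and their values there were 1.85 and 1.49. Parpbp, at 429 to 4709 CPM against 0 to 0.797, had the largest log2 fold change of the 15, and its counts cannot be told apart from those of Pmch.

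**Figure D2:**
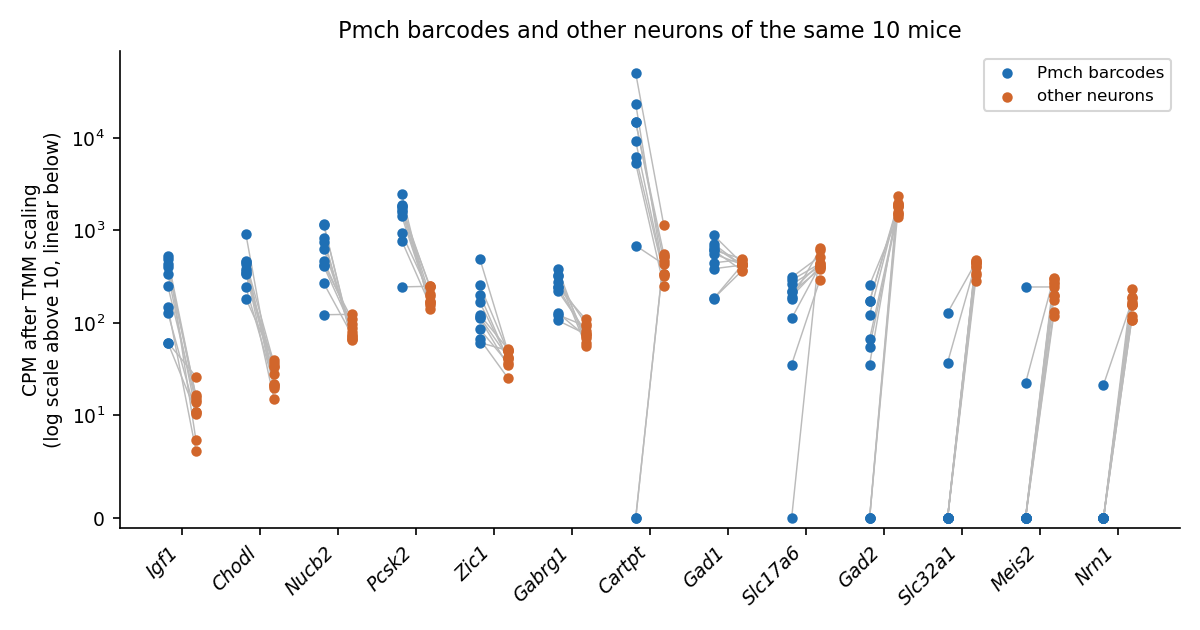
Each point is the CPM of a gene in 1 mouse (log scale above 10, linear below), with Pmch barcodes on the left of each gene, other neurons on the right and a line joining the sums of the same mouse, for 10 mice. Igf1 and Chodl lie above the other neurons in 10 of 10 mice, Gad1 overlaps, and Gad2, Slc32a1 and Nrn1 lie below in 10 of 10.

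The fast transmitter genes set Pmch barcodes apart from the other neurons, of which 47.9% had a Slc32a1 UMI and 34.9% a Slc17a6 UMI. Of 8 genes 6 were tested, 0 were higher and 4 were lower (over all genes 4.38% and 8.93%). Gad2, Slc32a1 and Slc17a6 were among the lower ones, and the median log2 fold change was -2.05 beside -0.22 over all genes tested. Slc32a1, the vesicular GABA transporter, had UMIs in 2 of 10 Pmch sums and 4 UMIs in all. Its level was 0 to 129 CPM against 285 to 477 in other neurons, and it fell by 5.07 on the log2 scale (SE 0.40, edgeR adjusted p = 1.5e-33).

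Gad2 (GAD65) had 0 to 257 CPM in Pmch barcodes against 1384 to 2333, without overlap, and fell by 4.21 (SE 0.22, edgeR adjusted p = 2.06e-78). Gad1 (GAD67), the other GABA-synthesizing enzyme, had 184 to 888 CPM with a median of 584 against 364 to 495 with a median of 424. It was higher in 6 of 10 mice and did not pass (log2 fold change 0.34, SE 0.16, edgeR adjusted p = 0.163). Gad1 thus stood near the level of the other neurons where Gad2 and Slc32a1 did not.

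Against the subset of other neurons with a Slc17a6 UMI and no Slc32a1 UMI, Gad1 was higher by 3.48 (edgeR adjusted p = 5.92e-61) and Gad2 lower by 0.81 (log2 fold change -0.81, edgeR adjusted p = 0.026). Gad1 also passed as higher than in all other neurons under DESeq2 size factors (0.49, edgeR adjusted p = 0.0108) and under no scaling (0.45, edgeR adjusted p = 0.0252), so its call there depends on the scaling. Slc17a6, the vesicular glutamate transporter VGLUT2, had 0 to 311 CPM with a median of 204 against 288 to 649 with a median of 424. It fell by 1.15 (SE 0.21, edgeR adjusted p = 1.06e-06) and was lower in 10 of 10 mice.

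Barcodes thinned to 1000 UMIs, which leaves 58 Pmch barcodes and 5327 other neurons, were compared as well. At that depth 27.7% of Pmch barcodes were expected to show Gad1 and 28.2% of other neurons. Gad2 was expected in 6.45% against 58.2%, and Slc32a1 in 0.587% against 28.1%, where oligodendrocyte barcodes, which should lack these genes, showed 3.14% and 0.94%. The Slc32a1 share in Pmch barcodes is at the background, and so is the Gad2 share of 2.47% in the 48 barcodes with at least 5% Pmch. Slc17a6 was expected in 14.0% against 23.5%, with 0.77% in oligodendrocyte barcodes. Without thinning, Gad1 had a UMI in 41 of 99 Pmch barcodes (41.4%, exact 95% interval 31.6% to 51.8%), Gad2 in 16, Slc32a1 in 3 and Slc17a6 in 31.

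Of 30 neuropeptide genes 13 were tested, 3 were higher and 6 lower (over all genes 4.38% and 8.93%), with a median of -1.82. The higher ones were Nucb2, Cbln1 and Cartpt. Cartpt (chr13:99898489-99901091) varied between mice, at 0 in control replicate 2 and high fat diet replicate 1, 686 CPM in high fat diet replicate 3, and 5330 to 50402 CPM in the other 7, against 250 to 1143 CPM in other neurons. Its log2 fold change was 3.98 (SE 0.94, edgeR adjusted p = 0.0214), it was higher in 8 of 10 mice, and it did not pass when any 1 of 7 of the 10 mice was left out (highest edgeR adjusted p = 0.0665). Cbln1, a secreted synapse organizer, rose by 1.49 (SE 0.30, edgeR adjusted p = 3.13e-05) and did not pass by DESeq2 or against the glutamatergic subset.

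Peptides of neighbouring neurons were low. Sst (somatostatin) had no UMI in 336477 UMIs of the Pmch sums and 8890 UMIs in the other neurons, at 183 to 581 CPM, which makes it at least 40.8-fold lower against a floor of 3 counts over the group. Nts (neurotensin) had 0 to 214 CPM against 249 to 744 and fell by 3.72 (SE 0.29, edgeR adjusted p = 4.02e-34). Tac2 (neurokinin B, -3.06), Gal (galanin, -2.11), Npy and Trh were the others that passed. Low levels of these peptides were found in some Pmch sums, with Nts UMIs in 5 of 10 mice.

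The genes that process and store peptides moved in both directions. All 16 on the list were tested, 7 were higher and 2 lower (over all genes 4.38% and 8.93%), with a median of 0.23. Besides Pcsk2 the higher ones were the amidating enzyme Pam (1.01, SE 0.15), the vesicle membrane protein Ptprn (1.14, SE 0.19), the granins Chgb (0.71, SE 0.14) and Scg3, the glutaminyl cyclase Qpct, and Pcsk1n. Ptprn ranged from 245 to 558 CPM against 138 to 223 without overlap. Pcsk1, the other prohormone convertase, was lower (-1.10, SE 0.36, edgeR adjusted p = 0.0222), but it missed the threshold in 7 of 30 alternative settings, among them DESeq2 (adjusted p = 0.0566), pool 2 alone (edgeR adjusted p = 0.67) and without the mice that stand apart (edgeR adjusted p = 0.0769). Scg5, the chaperone of prohormone convertase 2, was lower by edgeR (-0.42, adjusted p = 0.0487) but not in the barcodes with at least 5% Pmch (adjusted p = 0.0719), and it missed the threshold in 22 of 30 alternative settings.

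Of 51 transcription factors of neuron identity 13 were tested, 1 was higher and 6 lower (over all genes 4.38% and 8.93%), with a median of -1.01. The higher one was Zic1, at 61.4 to 497 CPM against 25.5 to 52.4 without overlap (log2 fold change 2.01, SE 0.30, edgeR adjusted p = 1.07e-09, and 0.0575 in pool 2 alone). Dlx1 had no UMI in the Pmch sums and 2850 in other neurons, at least 13.1-fold lower, Meis2 fell by 3.98 (SE 0.43), and Lhx1 had 1 UMI against 950 (ratio 0.0765, 95% counting interval 0.00194 to 0.427). Zfhx4 fell by 1.74, and Isl1 and Six3 also passed as lower.

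Receptor genes were mostly too sparse to test. Of 36 peptide and hormone receptors 6 were tested, 0 were higher and 2 were lower (over all genes 4.38% and 8.93%), with a median of -0.63. This tally leaves out Tacr3, given below, which did not reach the count filter. The galanin receptor Galr1 had 1 UMI in the Pmch sums against 758 (ratio 0.0959, counting interval 0.00243 to 0.536), and did not pass without the mice that stand apart (edgeR adjusted p = 0.0812). The glucocorticoid receptor Nr3c1 was lower by edgeR (-0.93, adjusted p = 0.0341), missed the threshold in 14 of 30 alternative settings, the one without the mice that stand apart among them (edgeR adjusted p = 0.0847), and turned to 0.12 with Pmch at 0.25% or more.

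Tacr3, which did not reach the count filter, had 76 UMIs in the Pmch sums (226 CPM pooled) against 257 in the other neurons (10.5 CPM pooled). Mchr1, the MCH receptor, had 6 and 317 UMIs, 17.8 and 13.0 CPM pooled. The insulin receptor Insr had 3 and 270 UMIs (ratio 0.808, counting interval 0.166 to 2.39). The leptin receptor Lepr had a UMI in 0 of 99 Pmch barcodes, which allows a share of barcodes with a UMI of up to 3.03% and sets no limit on expressing cells. It had a UMI in 0.551% of other neurons, and a difference was not detectable at this depth.

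Of 19 amine and cannabinoid receptors 4 were tested, 0 were higher and 2 lower (over all genes 4.38% and 8.93%), with a median of -1.16. The cannabinoid receptor Cnr1 had 0 to 61.4 CPM against 59.0 to 113 and fell by 2.00 (SE 0.50, edgeR adjusted p = 0.00105). The muscarinic receptor Chrm2 fell by 1.35 (SE 0.38, edgeR adjusted p = 0.00545). Of the 20 glucose and energy sensing genes 9 were tested and 0 passed in either direction (over all genes 13.3%), with a median of -0.31.

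Of 49 ion channel genes 30 were tested, 2 were higher and 7 lower, with a median of -0.33 (over all genes 4.38% were higher and 8.93% lower). The calcium channel subunit Cacna2d1 (0.97, SE 0.19) and the sodium channel Scn9a (1.39, SE 0.29) were the higher ones, although Cacna2d1 was at -0.01 against the glutamatergic subset. The fast-spiking potassium channel Kcnc1 had 0 to 245 CPM against 360 to 462 without overlap and fell by 2.04 (SE 0.25, edgeR adjusted p = 7.97e-14). The sodium channel Scn1a (-1.66), the potassium channel partner Kcnip1 (-3.11) and the sodium channel Scn8a (-1.91) fell too, as did Scn2b and Kcnj3.

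Subunits of the GABA-A receptor did not move together. Of 14 genes 12 were tested, 2 were higher and 4 lower (over all genes 4.38% and 8.93%), with a median of -0.38. Gabrg1 had 107 to 386 CPM with a median of 245 against 56.9 to 109 with a median of 75.5 (log2 fold change 1.71, SE 0.24, edgeR adjusted p = 2.31e-10, higher in 10 of 10 mice). Gabra2 rose by 1.33 (SE 0.25). Among the lower ones Gabra5 was at 0 to 44.7 CPM against 93.0 to 146 without overlap (-3.39, SE 0.52, edgeR adjusted p = 7.47e-09), and Gabra3 was at 29.0 to 290 CPM against 240 to 477 (-1.18, SE 0.23, edgeR adjusted p = 1.54e-05).

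Of 21 glutamate receptor subunits 14 were tested, 0 were higher and 3 lower (over all genes 4.38% and 8.93%), with a median of -0.29. The lower ones were Gria1 (-0.94), Gria4 (-1.06) and Grik2 (-1.42). Grik2 missed the threshold in 16 of 27 alternative settings and Gria4 in 5 of 30, and without the mice that stand apart neither passed (edgeR adjusted p = 0.285 and 0.0617). Of 18 immediate early genes, which mark recent activity, 7 were tested. Of these 0 were higher and 1 lower (over all genes 4.38% and 8.93%), with a median of 0.57. The lower one was Bdnf (-1.40, SE 0.40, edgeR adjusted p = 0.00655). Bdnf missed the threshold in 3 of 30 alternative settings, without the mice that stand apart (edgeR adjusted p = 0.0701) and in pool 2 alone (-0.51, edgeR adjusted p = 0.711) among them.

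Among the remaining lower genes of smallest p, Vsnl1, a neuronal calcium sensor, had 83.3 to 643 CPM against 1118 to 1560 without overlap and fell by 2.50 (SE 0.19). The fusion factor Nsf (-1.77), the release regulator Cplx1 (-2.96), Nrsn1 (-2.76), the heparan sulfotransferase Hs6st2 (-3.90), the Notch-like ligand Dlk1 (-2.46) and the transcript A030009H04Rik (-2.199) also fell. Nrn1 (neuritin), a growth factor-like surface protein, had 1 UMI in the Pmch sums against 3553 in other neurons, a ratio of 0.0205 with a counting interval of 0.000518 to 0.114.

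The second comparison set Pmch barcodes beside hypocretin barcodes, which were chosen by Hcrt in the same way. The latter had Hcrt at 0.5% of UMIs or more and more Hcrt than Pmch UMIs, and 199 were found. Of these, 106 reached the neuronal minimum, so they also count among the other neurons above. At least 1% of UMIs came from markers of a non-neuronal type in 51 of the 199, and oligodendrocyte markers did so in 36. The name hypocretin neuron is therefore not borne out for all of them. In the 9 mice with at least 3 of each kind, 89 Pmch and 170 hypocretin barcodes were summed, to 11786 to 67701 and 18259 to 158299 UMIs. Oligodendrocyte markers held 0.0192% to 3.66% of UMIs in the former and 0.0274% to 4.02% in the latter, ranges that overlap widely.

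Of 826 genes tested, 88 were higher in Pmch barcodes (10.7%, Parpbp included) and 90 lower (10.9%). Of these 178, 160 also passed in the same direction with Pmch at 5% or more. With Pmch and Hcrt each held to 5%, a setting chosen after seeing the data, 214 of 850 genes passed (110 higher, 104 lower). The convertases split in opposite directions. Pcsk1 was at 0 to 105 CPM with a median of 39.9 in Pmch barcodes and 706.2 to 2405 with a median of 1520 in hypocretin barcodes, without overlap, and fell by 4.69 (SE 0.25, edgeR adjusted p = 4e-20). Pcsk2 was at 380.4 to 2223 CPM against 297 to 601 and was higher by 1.69 (SE 0.16, edgeR adjusted p = 3.81e-11) and in 8 of 9 mice.

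Of 16 genes of peptide processing 13 were tested, 3 were higher and 6 lower (over all genes 10.7% and 10.9%), with a median of -0.41 beside 0.01 over all genes. The higher ones were Pcsk2, Pcsk1n (0.48, SE 0.13) and the carboxypeptidase Cpe (0.54, SE 0.16), which missed the threshold in 5 of 26 alternative settings. The lower ones were Pcsk1, the granin-like precursor Vgf (-2.79, SE 0.23), Scg3 (-1.13, SE 0.14), Chgb (-0.85, SE 0.13), Scg2 and Pam. Chgb and Scg3 were thus above other neurons and below hypocretin barcodes, each in its own fit.

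Pdyn (prodynorphin), a peptide known from hypocretin neurons, had no UMI in the 297497 UMIs of the Pmch sums and 719 to 999 CPM in the hypocretin sums, at least 88.4-fold lower against a floor of 3 counts over the group. C1ql3, a secreted synapse organizer, had 0 to 71.9 CPM against 1233 to 2336 and fell by 6.63 (SE 0.28, edgeR adjusted p = 6.27e-24). Chodl was at 247 to 835 CPM against 0 to 74.4 without overlap (log2 fold change 4.96, SE 0.41, edgeR adjusted p = 1.57e-13). Nucb2 was higher by 1.75 (SE 0.41, edgeR adjusted p = 0.0119) and in 8 of 9 mice.

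**Figure D3:**
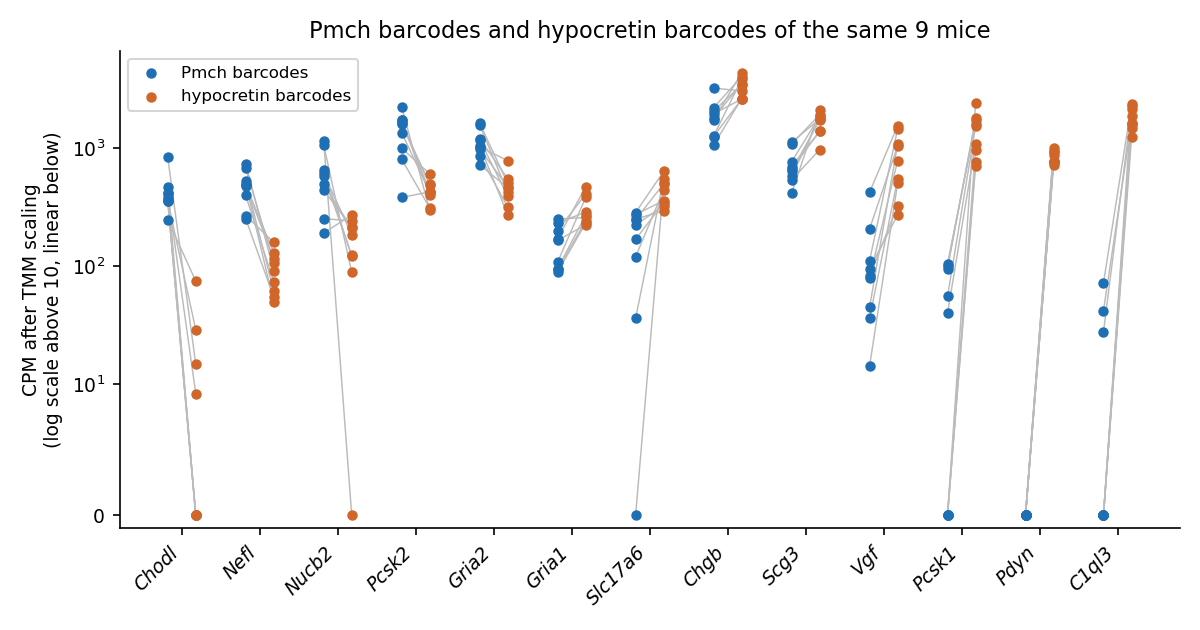
Each point is the CPM of a gene in 1 mouse (log scale above 10, linear below), with Pmch barcodes on the left of each gene, hypocretin barcodes on the right and a line joining the same mouse, for 9 mice. Chodl and Nefl are higher in Pmch barcodes, and Pcsk1, Pdyn and C1ql3 higher in hypocretin barcodes, without overlap.

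Other genes higher in Pmch barcodes were the adhesion molecule Lsamp (1.61), the neurofilament Nefl (2.35), Maged2 (1.63), the prolyl isomerase Fkbp2 (1.16), the AMPA receptor subunit Gria2 (1.19), the dynamin Dnm3 (1.75) and Tagln3 (1.24). Genes lower in Pmch barcodes were Gnas, the stimulatory G protein (-1.90), the surface protein Cd47 (-1.79), the membrane protein Itm2b (-1.16) and the transcripts 6330403K07Rik (-1.91), 2900011O08Rik (-1.46) and 2010204K13Rik (-2.37). Of the AMPA receptor subunits Gria2 rose and Gria1 fell (-0.93, SE 0.25, edgeR adjusted p = 0.00489, and 0.0506 without the mice that stand apart).

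Transmitter genes also differed from hypocretin barcodes. Slc17a6 was at 0 to 283 CPM against 294 to 632 without overlap and fell by 1.05 (SE 0.24, edgeR adjusted p = 0.000816). Gad1 did not reach the filter with 173 UMIs (582 CPM pooled) in Pmch and 14 UMIs (18.4 CPM pooled) in hypocretin sums. In the barcodes with at least 5% Pmch it was tested and was higher by 4.84 (edgeR adjusted p = 1.26e-18). Gad2, with 31 and 77 UMIs, was at 104 and 101 CPM pooled. Cartpt had 3426 UMIs in 7 of 9 Pmch sums and 16 in hypocretin sums, and Tacr3 had 64 and 1.

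The third comparison asked how Pmch barcodes differ among themselves by Cartpt, whose peptide is known to mark a subset of MCH neurons. Of 47 Pmch barcodes with at least 1500 UMIs, 21 had at least 2 Cartpt UMIs, 23 had none and 3 had 1. The positive barcodes held 3 to 1777 Cartpt UMIs with a median of 96, and 0.0268% to 6.29% of UMIs. The positive ones had a median of 7021 UMIs, and the Cartpt-free ones had a median of 5766 and up to 23889, and the part of depth in the division was not tested. Cartpt was thus either plentiful or not found in most deep barcodes.

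Tacr3, which was not used to divide them, had a UMI in 15 of the 21 positive barcodes (80 UMIs) and in 2 of the 23 Cartpt-free ones (2 UMIs), at 400.3 and 10.6 CPM pooled. Within the 4 mice of the test below the counts were 53 and 1 (ratio 64.5, counting interval 11.1 to 2595). Control mice had 12 positive and 12 Cartpt-free barcodes among 24, and high fat diet mice had 9 and 11 among 23.

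The 2 kinds were compared in the 4 mice with at least 2 barcodes of each (control replicates 1 and 5, high fat diet replicates 2 and 4), with 14 and 12 barcodes, sums of 9877 to 33365 and 12833 to 31296 UMIs, and Cartpt removed. Of 356 genes tested, 5 were higher in Cartpt-positive barcodes (1.40%) and 1 lower (0.281%). With no scaling beyond total UMIs 5 were higher and 4 lower. The higher ones were Parm1, Pcsk2, Nucb2, Chga and Rab3b, and the lower one was Scg2.

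Values are given in the order control replicate 1, high fat diet replicates 2 and 4, and control replicate 5. Parm1 was at 1686, 1245, 1271 and 1151 CPM in positive barcodes and at 216, 145, 184 and 139 in Cartpt-free ones (log2 fold change 2.92, SE 0.29, edgeR adjusted p = 0.000652). Pcsk2 was at 2704, 2590, 4792 and 4894 CPM against 834, 727, 645 and 313 (2.53, SE 0.40, edgeR adjusted p = 0.0116). Both were higher in 4 of 4 mice and the groups did not overlap, so the excess of these genes over other neurons was not spread evenly over Pmch barcodes. The positive sum of high fat diet replicate 2 (20517 UMIs) included a barcode of 13856 UMIs with Pmch at 0.556%. That of high fat diet replicate 4 included 1 with Pmch at 4.31%. With Pmch at 5% or more, Parm1 (3.11, edgeR adjusted p = 0.000122) and Pcsk2 (2.73, edgeR adjusted p = 0.000454) still passed.

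Nucb2 was at 1919, 797, 1662.4 and 672 CPM against 278, 436, 507 and 104 (2.05, SE 0.36, edgeR adjusted p = 0.0209). Chga, the granin chromogranin A, was at 2617, 897, 1565 and 864 CPM against 525, 363, 277 and 313 (1.99, SE 0.30, edgeR adjusted p = 0.0116). Rab3b, a vesicle GTPase, was higher by 1.65 (SE 0.33, edgeR adjusted p = 0.038) and missed the threshold in 5 of 13 alternative settings. Among the 9 tested of the 16 genes of peptide processing 2 were higher and 1 lower (over all genes 1.40% and 0.281%). Their median was -0.18 beside -0.01 over all genes.

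Scg2, the granin secretogranin II, ran the other way, at 988, 2341, 978 and 1343 CPM in positive barcodes and 4569, 3923, 7743 and 11378 in Cartpt-free ones. It fell by 2.19 (SE 0.40, edgeR adjusted p = 0.0234) and was lower in 4 of 4 mice without overlap. Parm1 and Scg2 passed in all 14 alternative settings, while Pcsk2, Chga and Nucb2 missed the threshold with at least 2500 UMIs per barcode (edgeR adjusted p = 0.0743, 0.051 and 0.0509). With Pmch at 5% or more 8 of 265 genes passed, Chga and Scg2 among them, and Nucb2 and Rab3b were not tested.

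Gad1 was at 901, 648, 978 and 384 CPM against 432, 581, 507 and 487 and did not pass (0.56, SE 0.33, edgeR adjusted p = 0.602). Gad2 had 12 and 1 UMIs and Slc17a6 17 and 29, both under the filter. Oligodendrocyte markers held 0.024%, 0.0487%, 0.0709% and 3.19% of UMIs in the positive sums and at most 0.0382% in the Cartpt-free ones, so control replicate 5 stood out. Without it Parm1, Pcsk2, Nucb2, Chga, Rab3b and Scg2 were all still called, among 12 genes in all, and the sums of 3 mice that lacked control replicate 1, which stands apart, gave 11, with Nucb2 under the count filter there.

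**Figure D4:**
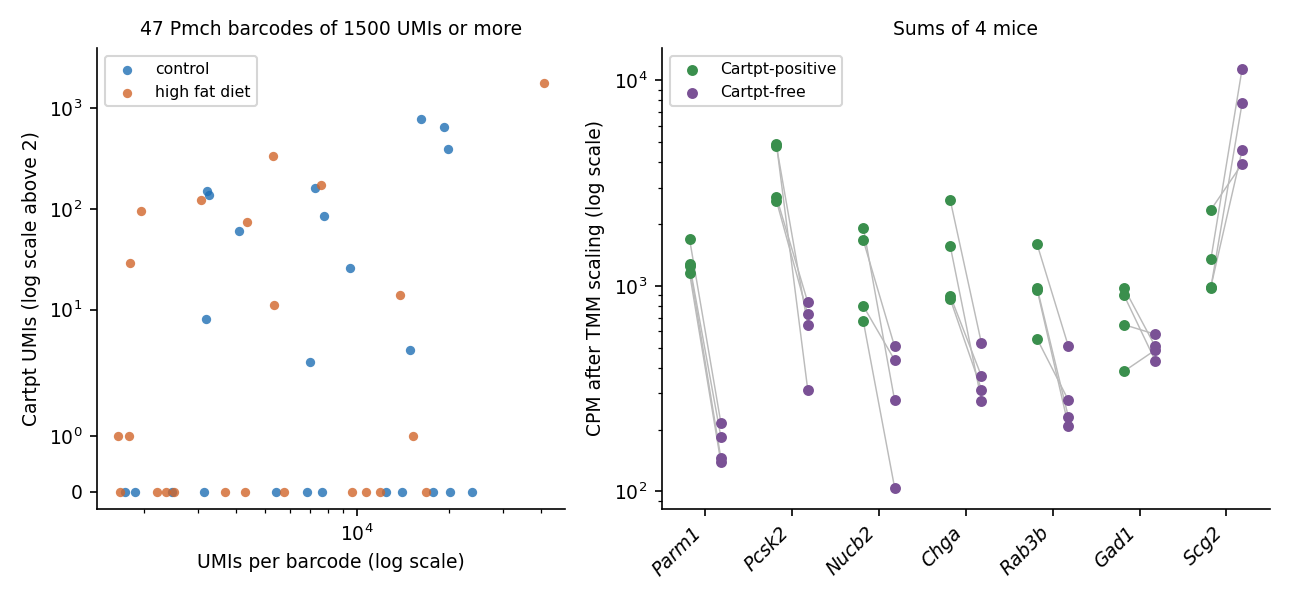
Left, Cartpt UMIs (log scale above 2) against UMIs per barcode (log scale) for the 47 Pmch barcodes with at least 1500 UMIs, in which 21 have at least 2 Cartpt UMIs and 23 have none. Right, CPM (log scale) of 7 genes in Cartpt-positive and Cartpt-free sums, with a line joining the same mouse for 4 mice; Scg2 is lower and 5 genes are higher without overlap, and Gad1 overlaps.

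The fourth comparison was by diet, with the mouse as replicate. Pmch barcodes made up 0.257% to 1.34% of kept barcodes in control mice (median 0.787%) and 0% to 1.02% in high fat diet mice (median 0.459%). The groups overlapped. The means were 0.827% ± 0.342 and 0.468% ± 0.398 (SD, n = 7 each), and a two-sided exact permutation test over 3432 splits gave p = 0.0967. Left out in turn, the mice gave p = 0.0385 to 0.185, with values under 0.05 without control replicate 3 (exact permutation p = 0.0385) or high fat diet replicate 6 (exact permutation p = 0.0396).

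As a share of neuron barcodes the values were 0.504% to 4.55% in control mice (median 2.63%) and 0% to 2.83% in high fat diet mice (median 0.984%). Neuron barcodes here are the other neurons plus all Pmch barcodes, of which 58 of 99 reached the neuronal minimum. This share also moves with the number of other neurons captured, 42 to 592 per control mouse and 10 to 805 per high fat diet mouse. The part of that number in the difference was not tested. The highest control value, in control replicate 7, rests on 2 Pmch barcodes beside 42 other neurons. The means were 2.63% ± 1.25 and 1.09% ± 1.03 (SD, n = 7 each, exact permutation p = 0.0291, and 0.0583 after Benjamini-Hochberg adjustment over the 2 denominators). Within pool 1 the means were 2.51% and 0.900% (exact permutation p = 0.2), and within pool 2 they were 2.80% and 1.34% (exact permutation p = 0.3, where 0.1 is the smallest p that 3 against 3 mice allow). The direction was the same in both pools, and neither denominator passed after adjustment. Among 49 kept barcodes of high fat diet replicate 7, a count of 0 allows a share of up to 6.12%, and among 870 of high fat diet replicate 5 up to 0.345%.

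**Figure D5:**
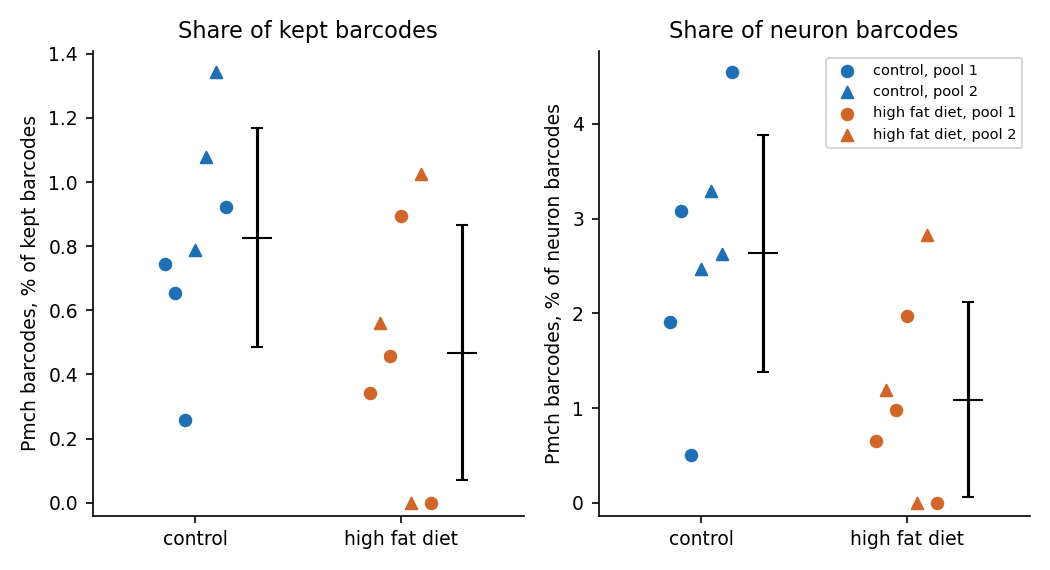
Pmch barcodes as a percentage of kept barcodes (left) and of neuron barcodes (right), 1 point per mouse, circles for pool 1 and triangles for pool 2; bars are the mean and SD of 7 mice. Control mice reach 1.34% of kept barcodes and high fat diet mice 1.02%, and the diets overlap in both panels.

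The share that Pmch took within the barcodes was not tested, since the rule used it. In barcodes with at least 5% Pmch the median per mouse was 18.5% to 28.0% of UMIs over 7 control mice and 16.2% to 35.9% over the 5 high fat diet mice that had such barcodes, and the ranges overlapped.

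No gene passed between diets within Pmch barcodes (0% of 761 genes tested by edgeR with the pool as a term, smallest adjusted p = 0.843). The fit used control replicates 1, 2, 4 and 5 and high fat diet replicates 1, 2, 3, 4 and 6, which had at least 5 Pmch barcodes each, and 31 genes had an unadjusted p under 0.05. With 5 to 18 barcodes and 11808 to 67921 UMIs per mouse, few genes could be tested. DESeq2 called 1 gene, the mitochondrial ribosomal RNA mt-Rnr2, as lower.

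The genes of smallest p are given with their values and without a verb of change. On the high fat diet side were the respiratory genes Ndufb10, Cox5a and Chchd10, the clathrin light chain Clta and Ubl5, at log2 fold changes of 0.82 to 1.03. Ndufb10 was at 567.98, 647, 721, 691 and 722 CPM in high fat diet replicates 1, 2, 3, 4 and 6 and at 330, 480.5, 325 and 398 in control replicates 1, 2, 4 and 5 (edgeR adjusted p = 0.843). These values did not overlap, although the gene did not pass.

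On the control side were the nuclear RNA Malat1 (-1.36), the MAGE family gene Tro (-1.16), mt-Rnr2 (-2.46), Chgb (-0.87) and Parpbp (-1.19). Malat1 was at 6735, 4217, 4235, 3491 and 4261 CPM on the high fat diet and 5106, 24217, 8653 and 9178 on the control chow. The highest value was in control replicate 2, where 1 of 9 Pmch barcodes had Pmch at 5% or more. Parpbp was at 811, 843, 450.5, 1270 and 1974 CPM against 4346, 1634, 1381 and 2410. Its counts cannot be told apart from those of Pmch, so they are a description.

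Cartpt was at 0, 6101, 721, 13050 and 43689 CPM on the high fat diet and 21742, 0, 5810 and 8717 on the control chow (log2 fold change 0.04, SE 1.85, edgeR adjusted p = 0.998). These sums ranged from 0 upward in both diets, and 1 barcode held 1777 of the Cartpt UMIs in high fat diet replicate 6. Nucb2 (0.18, SE 0.37) and Gad1 (-0.07, SE 0.33) did not pass. With SEs of this size, a difference of more than 1 SE in either direction could also go unseen. No member of the 11 gene lists passed, with 10 of 16 genes of peptide processing tested at a median of -0.18 beside 0.00 over all genes.

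Without control replicate 1, 19 of 722 genes tested were lower on the high fat diet and 0 higher. Among them were 5 of the 8 oligodendrocyte markers, Mbp, Mobp, Mag and Ermn included. Oligodendrocyte markers held 0.0191%, 3.66%, 1.01% and 1.38% of UMIs in control replicates 1, 2, 4 and 5 and 0.457%, 0.0486%, 0.836%, 0.374% and 0.261% in the 5 high fat diet mice, so control replicate 1 had the lowest level of all 9. Without the 3 mice that stand apart, 9 of 1009 genes tested were lower, again 5 of them oligodendrocyte markers. Chgb (-1.44, edgeR adjusted p = 0.0211) was among the others. With Pmch at 5% or more 0 of 1087 genes passed.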

How the data were processed

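The members and the gene lists were chosen with earlier results of these data known. The authors deposited raw UMI counts, 1 genes-by-barcodes table per mouse with no normalization. The submitters' processing notes name mm10 (GRCm38) and the tools Picard 2.2.4, STAR 2.4.2a and bcl2fastq 2.18.0.12. Which program counted UMIs, on which annotation, and how barcodes were picked is not given in the sources used here. The tables held 147470 to 5611524 UMIs.

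A barcode was kept with 500 UMIs, 300 genes and no more than 20% mitochondrial UMIs. Counts were summed per mouse and class and fitted by edgeR 4.0.16 under R 4.3.3 (robust quasi-likelihood, TMM, filterByExpr), with the mouse as a block because both classes come from the same animals, or for diet with the pool as a term. DESeq2 1.42.0 and limma 3.58.1 were alternatives. Scrublet (scanpy 1.11.5) called 214 doublets, 3 of them Pmch barcodes, which were removed only as an alternative. Exact permutation tests used scipy 1.17.1. Scripts were tested on simulated data. An oligodendrocyte barcode had 5% of UMIs or more from 8 markers and under 2 Snap25 and Syt1 UMIs. Shares at 1000 UMIs are expectations over all draws, without the shallower barcodes (41 Pmch barcodes, 660 other neurons). Intervals (exact, 95%) and floors of 3 counts cover counting error only. Gene positions come from GENCODE on GRCm38.

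Named genes were those of smallest p among those that passed (15 higher and 12 lower against other neurons, 10 each way against hypocretin barcodes and by Cartpt, and by diet the 5 of smallest p each way), 13 fixed genes, and up to 4 members of each list each way that passed. Some genes that this rule names are not reported here.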

Additional observations from a re-analysis of the deposited data

Results flagged for a closer look

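Among 50 groups of 4 to 10 samples, 2 had a sample far from the others by Dixon's test, where chance flags about 1 in 20 groups. Malat1 in the diet comparison was at 6735 CPM in high fat diet replicate 1, above the other 4 high fat diet mice at 3491 to 4261 CPM. Parpbp in Cartpt-free barcodes was at 7069 CPM in control replicate 1 against 1453 to 2123 CPM in the other 3 mice.

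A signal was also seen in barcodes that no comparison used. Of 13032 barcodes under the cell filters, 187 had Pmch at 5% of UMIs or more and at least 3 Pmch UMIs (1.43%, exact 95% interval 1.24% to 1.65%), and their median depth was 214 UMIs. In 15 pairs, a shallow barcode differed by 1 base from 1 of 6 deep Pmch barcodes of the same mouse, and all but 1 of these shallow barcodes are among the 187. The deep ones had 14945 to 40875 UMIs with Pmch at 12.1% to 21.3%, and the neighbours had 146 to 715 UMIs with Pmch at 21.0% to 40.3%, higher in 15 of 15 pairs. One neighbour, in high fat diet replicate 6, was itself among the 99.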

How the results depend on the processing

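Pmch at 5% or more (alone or with Hcrt held to 5% too), the runs without the mice that stand apart by Cartpt and without the 1-base neighbour were chosen after seeing the data. Against other neurons 27 of 30 alternatives kept the count of 911 within 1.5 times. The others gave 1849 genes with no filter on low counts, 392 in pool 1 alone and 469 in pool 2 alone, and mice left out in turn gave 762 to 921. With no replicate block, 907 genes passed in place of 911, and against hypocretin barcodes 134 in place of 178. There the unfiltered fit gave 484 and mice left out in turn 125 to 193.

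By diet 0 genes passed, and 2 did with Pmch at 1% or more (Apoe and Parpbp), 1 at 2% or more (Parpbp), 4 with Snap25 and Syt1 at 2 UMIs (Parpbp, mt-Rnr2, Ndn and Penk), 1 by DESeq2, 8 with no filter and 9 without the mice that stand apart. Mice left out in turn gave 0 to 19. The Parpbp calls cannot be told apart from Pmch, which the rule used. The fit with at least 10 Pmch barcodes per mouse could not be made. No paired analysis was possible because mouse numbers do not pair mice across diets. The share of neuron barcodes differed by -1.54 percentage points between diets, and by -1.31 with Pmch at 5% or more, both with an unadjusted p under 0.05. The difference in the share of kept barcodes was -0.358, and -0.453 to -0.272 with mice left out in turn. It was -0.567 with at least 1000 UMIs per barcode and -1.59 with Pmch at 0.25% or more (exact permutation p = 0.0501). At 0.25%, control mice ranged from 0.428% to 7.38% (median 1.16%) and high fat diet mice from 0% to 1.37% (median 0.619%). Pmch outside the rule was at 55.4 to 379 CPM in control mice and 8.43 to 135 CPM in high fat diet mice, and its part was not tested.

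By Cartpt 6 genes passed, and 17 did with no filter, 10 with no replicate block, 2 with at least 2500 UMIs per barcode, 14 with Cartpt at 0.1% or more against below, and 11 without control replicate 1, the only tested mouse that stands apart. Mice left out in turn gave 6 to 14. The cause of these changes was not tested.

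Nr3c1 turned to 0.12 with Pmch at 0.25% or more, and Cacna2d1 to -0.011 against glutamatergic barcodes. Signs also turned for 3 genes that did not pass by diet, all with adjusted p above 0.9. Cartpt was at -0.71 with Pmch at 1% or more, -0.70 at 2%, -0.13 at 5%, -0.52 with at least 1000 UMIs, -1.16 with Snap25 and Syt1, -0.16 by limma voom and -0.18 with at least 3 barcodes per mouse, and at -1.21 to 2.51 with mice left out. Nucb2 was at -0.14 with Snap25 and Syt1, -0.0014 with at least 3 barcodes per mouse, and -0.088 to 1.13 with mice left out. Gad1 was at 0.035 without doublets, 0.052 with no scaling, 0.17 without the mice that stand apart, and -0.22 to 0.28 with mice left out. Depth limits how many genes could be tested by diet, with 5 to 18 barcodes per mouse.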
